A study of Caenorhabditis elegans with 15 samples.

Results

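The FMRFamide-like peptide genes of Caenorhabditis elegans, the flp genes, were taken as every row of the deposited tables named flp followed by a number. The rule found 31 genes among 42048. They were flp-1 to flp-28, flp-32, flp-33 and flp-34. Of these, 30 passed the filter for testing, a mean of at least 1 RPKM (reads corrected for library depth and for the length of each gene) over the libraries compared. They did so in each group alone, since the lowest group mean among them was 1.95 RPKM, that of flp-20 in TU3401 worms. The remaining member, flp-23, had 0 to 3 reads in any library and was not tested.

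Each flp gene encodes a precursor protein that is cut and amidated into short peptides ending in arginine and phenylalanine. The peptides are packed into dense core vesicles, released mainly by neurons and read by G protein-coupled receptors on other cells. In the worm they are known for shaping locomotion, egg laying, feeding, sleep and the response to sensory cues.

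Whole worms were taken on adult day 1 after growth at 20 °C, and total RNA was sequenced as 3 libraries for each of 5 groups. TU3401 is a strain whose sid-1 mutation blocks uptake of double-stranded RNA and whose sid-1 transgene, driven by the unc-119 promoter, restores it in neurons. The other strain, SHU47, is labelled glp-1, with no allele given, and its groups are labelled as neuronal RNAi. glp-1 encodes the Notch receptor that keeps germline stem cells dividing, and worms without its function lack germ cells. All worms ate HT115 (DE3) bacteria with an L4440 RNAi vector. The 5 groups were TU3401 on luc, the control RNAi of the titles, and glp-1 worms on luc or on RNAi of hlh-30, of atg-2 or of atg-18. hlh-30 encodes the worm counterpart of the autophagy regulator TFEB, and ATG-2 and ATG-18 act in autophagosome growth. Whether the 3 libraries of each group are separate cultures is not stated, so a p-value here speaks of the spread among libraries, which may be technical.

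The libraries held 17496624 to 25599148 reads each, a depth recovered from the RPKM steps. Mean RPKM of the glp-1 gene was 69.6 ± 3.53 (SD, n = 3) in TU3401 and 2.96 ± 0.426 in glp-1 luc worms. The summed RPKM of 20 germline genes was 8513 to 8690 in TU3401 libraries and 107.8 to 303 in the 12 glp-1 libraries, in which between 0 and 5 of these genes were listed at 0. No RNAi target had a lower mean under its own label than on luc. Mean RPKM of hlh-30 was 50.01 in glp-1 luc worms and 249 under the hlh-30 RNAi label, that of atg-2 was 30.1 and 40.2 under its label, and that of atg-18 was 72.5 and 82.0. Groups are therefore called by their labels.

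In glp-1 luc worms mean flp levels ran from 9.56 RPKM for flp-34 to 299 RPKM for flp-28, with flp-23 at 0. In TU3401 they ran from 1.95 RPKM for flp-20 to 70.5 RPKM for flp-6, a peptide gene of sensory neurons, with flp-23 at 0.0343. RPKM is per length, so levels can be compared between genes. The order of the 31 genes was similar in the 2 groups (Spearman's rho = 0.956 across genes, a description over means from libraries that share depth). The 3 highest members held 33.4% of the summed flp RPKM in TU3401 and 33.1% in glp-1 luc worms, but they were flp-6, flp-28 and flp-24 in the first and flp-28, flp-22 and flp-9 in the second. Behind these values stood 10 to 940 reads per tested member in a TU3401 library and 48 to 1773 in a glp-1 library.

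**Figure D1:**
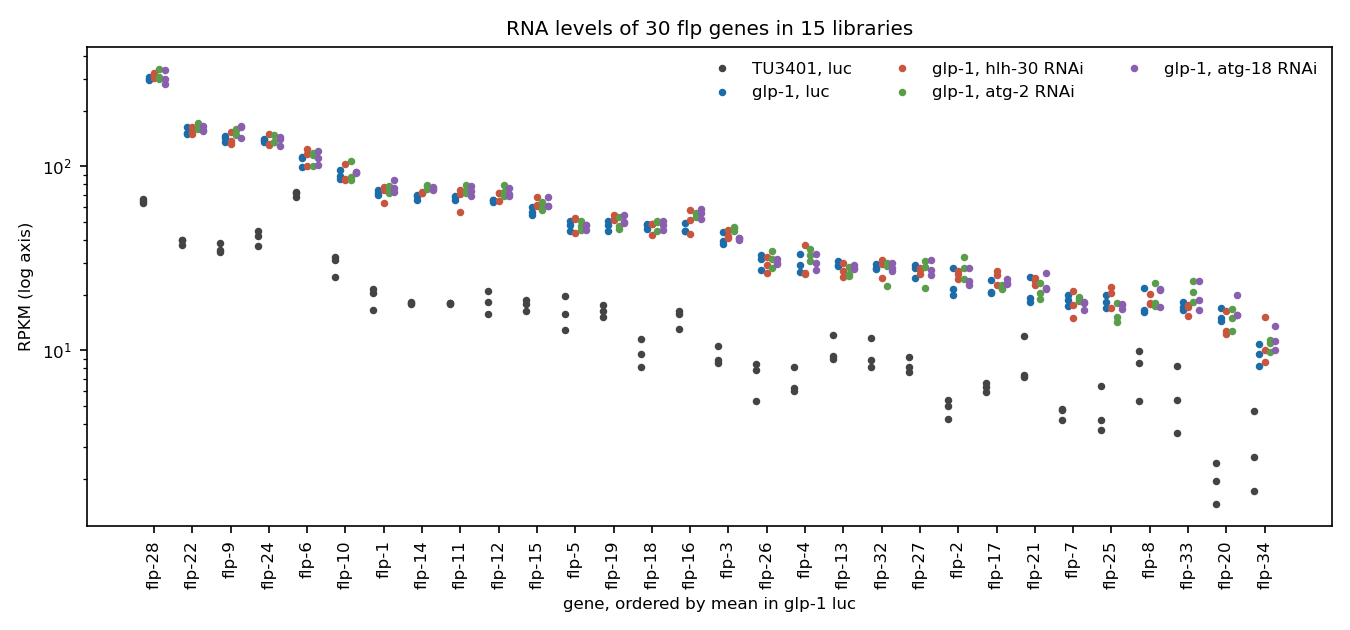
RPKM (log axis) of the 30 flp genes detected in every library, ordered by their mean in glp-1 luc worms; each point is 1 of 15 libraries, coloured by group. For each gene the 3 TU3401 points lie below the 12 glp-1 points, at 1.95 to 70.5 RPKM on average against 9.56 to 299 RPKM in glp-1 luc worms. On body wall muscle scaling 12 of the 30 genes have a difference below 0 in glp-1 luc, of which only flp-6 is called lower.

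Setting glp-1 luc beside TU3401 luc worms asks how worms without germ cells differ from worms with them. In RPKM as deposited, all 30 tested flp genes rose in glp-1 worms, while 12 of them lay below 0 when libraries were scaled on body wall muscle genes. The summed flp RPKM was 554, 491 and 542 in the TU3401 libraries and 1854, 1760 and 1788 in the glp-1 luc libraries, groups that stood far apart. The ratio of group means was 1.53 for flp-6, 7.95 for flp-20 and 3.51 at the median. It was under 2 for 1 gene, between 2 and 3 for 6, between 3 and 4 for 15 and over 4 for 8. The test was limma on log2(RPKM + 1), a scale that understates the change of low genes, with Benjamini-Hochberg adjustment over all genes and a threshold of 0.05. It called 30 of 30 flp genes higher against a background of 41.4% of 13569 genes called higher and 48.3% called lower. The groups did not overlap for any of the 30, as for 41.6% of all genes in that direction. The median log2 difference was 1.76 over the tested flp genes, 1.74 over the 31 members and -0.19 over all genes tested. In whole worms, fewer cells of a type and less RNA per cell cannot be told apart. In the deposited comparison table of the authors, 30 of the 31 members had a false discovery rate under 0.05, against 13737 of all 42048 genes in either direction. Each of the 30 was higher in glp-1 worms, and flp-23 had a rate of 0.861.

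The largest difference, by ratio as well as on the log2 scale, was that of flp-20, a peptide gene of the touch receptor neurons. Its RPKM was 1.47, 1.94 and 2.44 in TU3401 and 14.4, 17.03 and 15.04 in glp-1 luc worms. This low gene of TU3401 worms rested on 10, 12 and 18 reads there and on 84, 92 and 101 reads in glp-1 luc worms, and the log2 difference was 2.49 ± 0.14 (SE; limma adjusted p = 1.61e-06). Next on the log2(RPKM + 1) scale came flp-28, although by ratio of group means flp-18 (4.87) and flp-2 (4.77) were above it (4.62). flp-28 gave 66.5, 62.9 and 64.9 RPKM in TU3401 and 307, 293 and 297 RPKM in glp-1 luc worms. It became the most abundant member, with a log2 difference of 2.19 ± 0.05 and the smallest limma adjusted p of the family, 3.90e-08.

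Among genes with known roles in feeding, fat and arousal, flp-18 encodes ligands of NPR-1, NPR-4 and NPR-5 that act on foraging and fat storage. It went from 11.5, 8.11 and 9.53 RPKM to 48.7, 45.4 and 47.9 RPKM (log2 difference 2.18 ± 0.12, limma adjusted p = 1.20e-06). flp-2, which promotes arousal, went from 5.40, 4.21 and 4.99 RPKM to 28.1, 20.1 and 21.5 RPKM (2.04 ± 0.14). In both genes the lowest glp-1 library lay well above the highest TU3401 library. flp-7, a neuronal signal for fat loss in the intestine, had means of 4.59 and 18.7 RPKM (log2 difference 1.82), and flp-1, a locomotion peptide gene of the AVK interneurons, had means of 19.5 and 72.1 RPKM (1.84).

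Of the sleep peptide genes, flp-11 is the product of the RIS neuron, and flp-13 and flp-24 are made by the ALA neuron, which drives sleep after stress. Mean RPKM went from 18.01 ± 0.159 to 67.5 ± 1.64 for flp-11 (log2 difference 1.85) and from 41.1 ± 3.86 to 139 ± 2.18 for flp-24 (1.74). For flp-13 it went from 10.1 ± 1.71 to 29.5 ± 0.947 (1.47). In RPKM as deposited the 3 genes passed the test, each higher in glp-1 worms. On muscle scaling their differences were 0.15, 0.0066 and -0.19, and none passed.

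The egg-laying inhibitors flp-10 and flp-17, whose peptides act through the receptor EGL-6, went from 29.3 to 90.2 RPKM (log2 difference 1.60) and from 6.31 to 21.8 RPKM (1.64) on average. egl-6 itself moved the other way, from 4.94 ± 0.235 to 3.68 ± 0.432 RPKM (log2 difference -0.35 ± 0.11, limma adjusted p = 0.0182). On muscle scaling flp-10 stood at -0.12 and flp-17 at 0.034, neither past the test.

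On the log2(RPKM + 1) scale the 4 smallest differences belonged to flp-6, flp-8, flp-21 and flp-34, while by ratio of group means flp-34, a low gene, stood at 3.17 and flp-19 at 2.91 was the fourth lowest of the 30. flp-6, whose peptides are released by thermosensory and taste neurons, gave 72.2, 67.8 and 71.6 RPKM in TU3401 and 111, 99.5 and 112 RPKM in glp-1 luc worms. The groups did not overlap, but the log2 difference was only 0.60 ± 0.07 (limma adjusted p = 6.97e-05). flp-8, expressed in the oxygen-sensing URX neurons, went from 8.53, 5.33 and 9.90 RPKM to 21.8, 16.3 and 16.5 RPKM (1.13 ± 0.22). flp-21 encodes a ligand of NPR-1, the receptor that sets whether worms feed alone or in groups. It was at 11.98, 7.20 and 7.39 RPKM in TU3401 and at 18.2, 19.4 and 25.2 RPKM in glp-1 luc worms (1.17 ± 0.21). flp-34 went from 1.73, 2.64 and 4.67 RPKM to 10.9, 8.22 and 9.57 RPKM (1.45 ± 0.26), with TU3401 libraries that spread more widely than those of most members. Library 1 of TU3401 was the high one for flp-21, and the low one for flp-34.

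The other members lay between these. flp-22 and flp-9, the most abundant in glp-1 worms after flp-28, went from 39.6, 37.6 and 40.0 RPKM to 163, 150.3 and 152 RPKM (log2 difference 1.96) and from 35.01, 34.1 and 38.4 RPKM to 143, 136 and 147 RPKM (1.95). flp-3, expressed in the IL1 neurons of the head, went from 8.91, 10.5 and 8.59 RPKM to 37.9, 39.3 and 44.1 RPKM (2.01). Both sets of libraries were tight compared with the distance between them. flp-4 went from 5.99, 8.11 and 6.23 RPKM to 33.5, 29.1 and 26.8 RPKM (1.99) and flp-26 from 8.45, 5.31 and 7.81 RPKM to 33, 31.4 and 27.2 RPKM (1.96). The log2 differences of the members not named so far, flp-5, flp-12, flp-14, flp-15, flp-16, flp-19, flp-25, flp-27, flp-32 and flp-33, lay from 1.48 for flp-19 to 1.86 for flp-14.

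**Figure D2:**
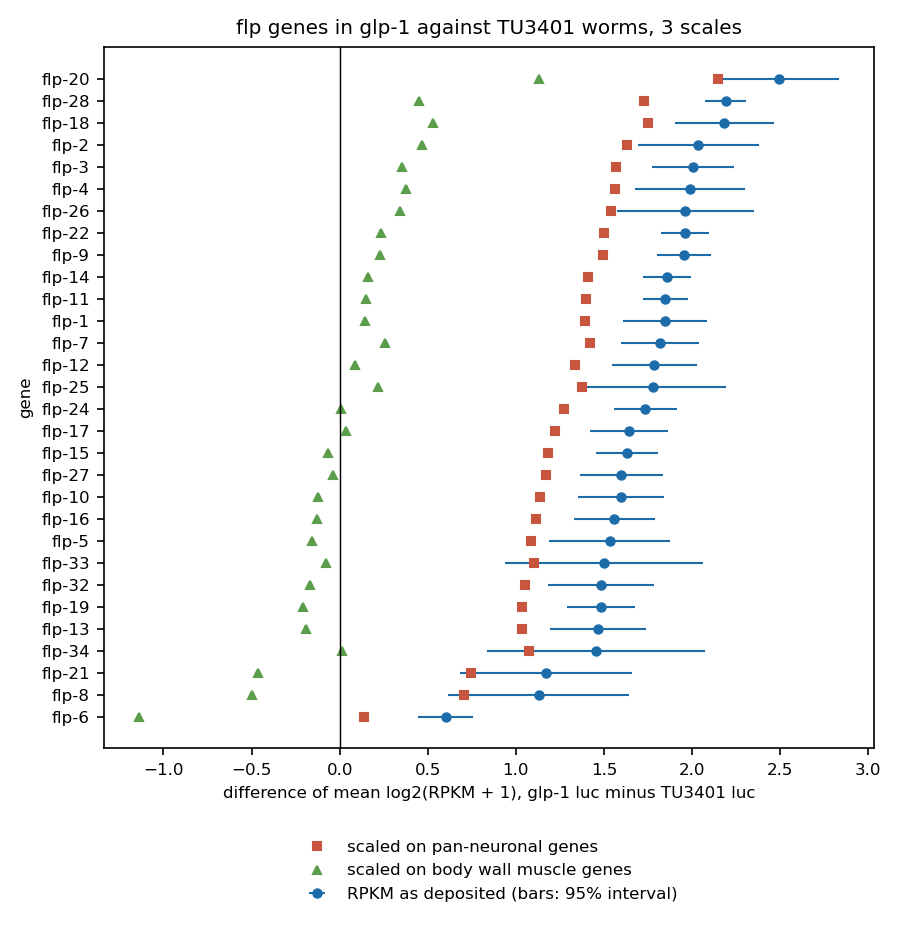
Difference of mean log2(RPKM + 1) between glp-1 luc and TU3401 luc worms (x axis, 3 libraries each) for 30 flp genes (y axis); circles with 95% limma intervals are RPKM as deposited, squares and triangles the same after scaling libraries on pan-neuronal or body wall muscle genes. Circles run from 0.60 (flp-6) to 2.49 (flp-20); on the muscle scale 12 genes lie below 0.

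RPKM expresses each gene as a share of the RNA sequenced, and the makeup of that RNA differed between the groups. The germline sums given above fell, while the summed RPKM of 23 body wall muscle genes went from 4334 to 5138 in TU3401 to 15134 to 18427 in glp-1 luc libraries, and that of 10 intestine genes from 1583 to 1856 to 5448 to 5738. Hypodermal genes were mixed. The sum over 10 of them went from 779 to 883 RPKM to 1170 to 1556 RPKM, but without a filter on low values 3 of the 10 were called higher and 6 lower (27.7% and 32.8% of all genes), with the cuticle collagen genes dpy-7 at -4.15 and sqt-3 at -4.14 and the collagen gene col-19 at 1.78. No muscle, intestine or pan-neuronal marker was listed at 0 in any library. Libraries were therefore also scaled on the median ratio of 31 pan-neuronal genes or of the 23 muscle genes. The pan-neuronal ratio spread widely in TU3401 libraries (0.966, 0.591 and 0.688) and less in glp-1 luc libraries (1.09, 0.969 and 0.988). The muscle ratio was 0.327, 0.334 and 0.326 in TU3401 and 1.002, 1.22 and 1.11 in glp-1 luc libraries. The median of all genes was -0.19 as deposited, -0.63 on the pan-neuronal scale and -1.58 on the muscle scale. On the pan-neuronal scale 29 of 30 flp genes were called higher (32.5% of all genes tested), with a flp median of 1.30 and 51.1% of all genes called lower, and flp-6 was at 0.14 (limma adjusted p = 0.592). On the muscle scale 4 were called higher (7.45% of all genes tested), namely flp-20 at 1.13, flp-18 at 0.53, flp-28 at 0.45 and flp-3 at 0.35, and flp-6 was called lower at -1.14 (67.1% of all genes tested). There the flp median was 0.06, with 18 genes above 0 and 12 below.

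Whether members moved more or less than the rest of the family was tested by scaling each library on the median ratio of the flp genes themselves, an alternative added after the data were seen. Of 30 genes, 10 were called, against 77.7% of all genes tested on that scale. The scaling centres the flp genes, whose median was -0.026, while the median of all genes was -1.65, so the 2 shares are not alike. flp-20 (log2 difference 1.05, limma adjusted p = 0.000546), flp-18 (0.44), flp-2 (0.38) and flp-28 (0.36) were above the family. flp-6 (-1.22, limma adjusted p = 1.22e-06), flp-8 (-0.58), flp-21 (-0.55), flp-19 (-0.30), flp-16 (-0.22) and flp-10 (-0.21) were below it. The count was 5 without glp-1 luc library 2, 6 without glp-1 luc library 1 and 7 to 11 without any other library. flp-6, flp-20, flp-18 and flp-28 passed in each of these 6 fits.

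Shares of the summed flp RPKM describe how the family's RNA was divided. They add up to a whole, so a lower share of 1 member raises those of the others. flp-6 held 13.04, 13.8 and 13.2% in the TU3401 libraries and 5.996, 5.65 and 6.28% in the glp-1 luc libraries. flp-28 held 12.02, 12.8 and 11.98% and then 16.6, 16.7 and 16.6%. flp-20 held 0.265, 0.396 and 0.451% and then 0.779, 0.968 and 0.841%. In these 3 members the shares of the 2 groups did not overlap, but they were not alone in this. Over the whole family, these 3 included, 8 members had a higher share in glp-1 luc worms without overlap and 4 a lower one. The shares of the other 19 overlapped. Mean shares of flp-22 (1.21 percentage points), flp-9 (1.08) and flp-18 (0.80) rose by more than that of flp-20 (0.49).

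**Figure D3:**
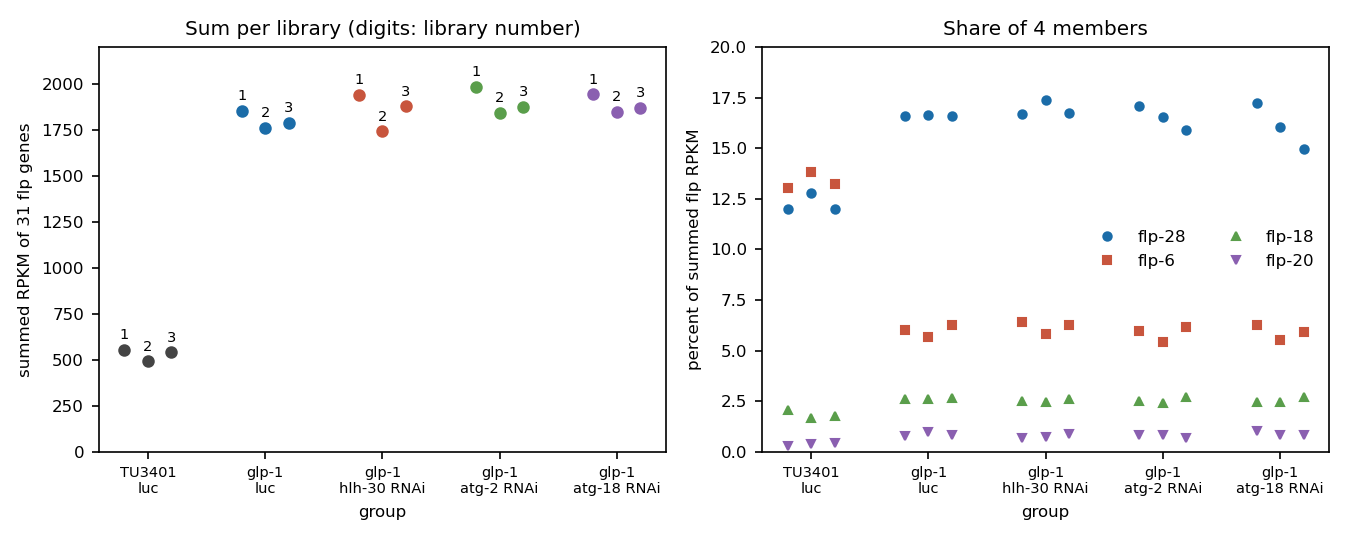
Left, summed RPKM of the 31 flp genes in each of the 15 libraries (digits are library numbers); right, percent of that sum held by flp-28, flp-6, flp-18 and flp-20 in each library. Sums are 491 to 554 in TU3401 and 1742 to 1985 in glp-1 libraries. On average flp-6 goes from 13.4% to 5.97% in glp-1 luc worms while flp-28 goes from 12.3% to 16.6%. On body wall muscle scaling 12 flp genes have a difference below 0 in glp-1 luc, of which only flp-6 is called lower.

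Genes that make, carry, receive and degrade the peptides were described beside them in RPKM as deposited. Their counts stand against the shares of all genes given above, 41.4% called higher and 48.3% lower as deposited, 32.5% and 51.1% on the pan-neuronal scale, and 7.45% and 67.1% on the muscle scale, where the median of all genes was -1.58. Of 11 peptide processing enzymes 9 were called higher and 1 lower, with a median log2 difference of 1.61, against 1 higher and 5 lower (-0.083) on the muscle scale. aex-5, a proprotein convertase, had a difference of 2.29, egl-3, the convertase that cuts most neuropeptide precursors, 1.84, and its chaperone sbt-1 1.82, while bli-4, a furin-like convertase, stood at -0.49. On the pan-neuronal scale 7 enzymes were called higher and 1 lower. Of 9 dense core vesicle genes 5 were called higher and 1 lower (median 0.44), against 0 higher and 7 lower (-0.79) on the muscle scale, shares of higher calls as deposited and of lower calls on the muscle scale that are not far from those of all genes. Among them, as deposited, were ida-1, a vesicle membrane protein, at 1.37 and pkc-1, a kinase that promotes peptide release, at -1.45.

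Of 22 receptor genes reported to bind FLP peptides, 13 passed the filter, but 5 of these, npr-10 among them, did so only through glp-1 luc worms, so the calls over these 13 are not counted. Without the filter, 13 of the 22 were called higher and 2 lower (27.7% and 32.8% of all genes), with a median of 0.58. On the muscle scale, where the filter was applied after scaling, 19 passed, and 1 was called higher and 5 lower (-0.34). How many of these 19 passed through 1 group only was not counted. Of the 8 receptors with at least 1 RPKM in both groups, 6 were called higher and 1 lower as deposited. npr-10 went from 0.952 ± 0.0391 to 6.26 ± 0.257 RPKM (log2 difference 1.89), frpr-4, a receptor of FLP-13 peptides, was at 1.28, and npr-5, a receptor of FLP-18 peptides, at 1.23. The one lower among the 8 was egl-6, given above. Receptor RNA was scarce next to that of the peptides, with a summed RPKM over the 22 genes of 29.1 to 37.1 in TU3401 and 61.3 to 69.6 in glp-1 luc libraries. Of 7 neprilysins, membrane peptidases that break peptides down, 6 were called higher and 1 lower (median 1.10), against 0 higher and 4 lower (-0.41) on the muscle scale. As deposited nep-2 stood at 1.45 and nep-1 at -1.46.

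Pan-neuronal genes did not move together. Of 31 tested, 15 were called higher and 9 lower, with a median of 0.32, and 1 passed the filter only through glp-1 luc worms. Of the 30 with at least 1 RPKM in both groups, 14 were called higher and 9 lower. On the muscle scale 0 were higher and 24 lower (-0.98). Of all genes, 41.4% were higher and 48.3% lower as deposited (median -0.19), and 7.45% and 67.1% on the muscle scale (-1.58). The summed RPKM of the 31 pan-neuronal genes was 1790 to 1818 in TU3401 and 1118 to 1284 in glp-1 luc libraries. cpx-1, the synaptic protein complexin, was at 1.47, the syntaxin gene unc-64 at 1.21 and the SNAP-25 gene ric-4 at 1.20. The lowest were maco-1 at -2.55, unc-76 at -2.33 and the tubulin gene tbb-1 at -2.19, and expression of the listed genes outside neurons was not tested. The part of these shifts in the flp differences was not tested beyond the scaled fits.

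**Figure D4:**
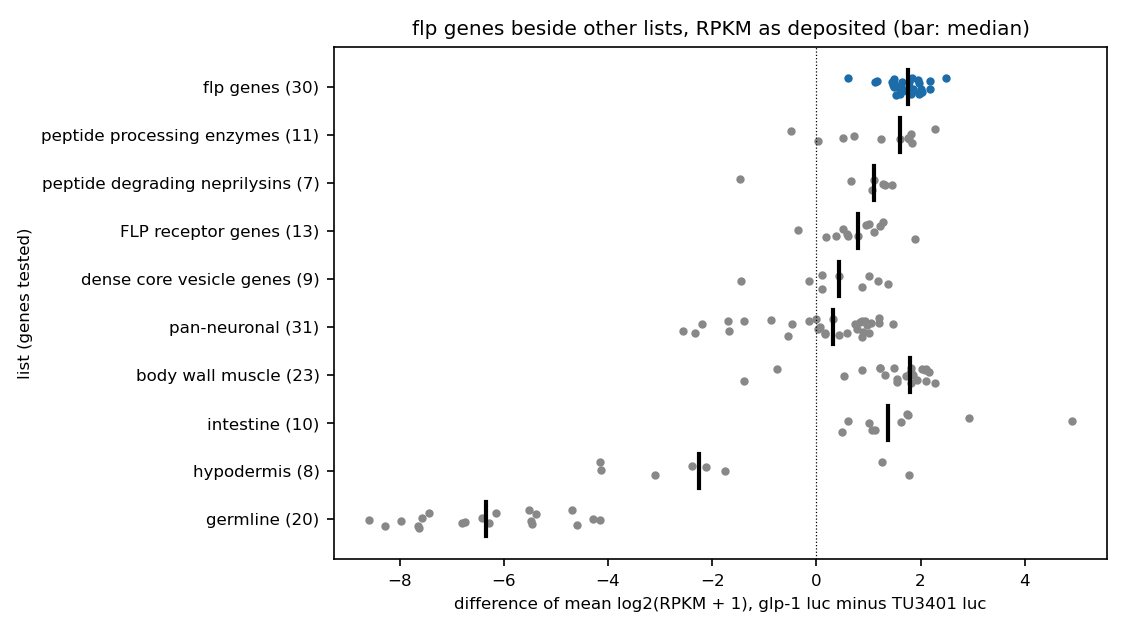
Difference of mean log2(RPKM + 1) between glp-1 luc and TU3401 luc worms (x axis, RPKM as deposited) for the genes of 10 lists (y axis, number tested in brackets); points are genes and the bar is the list's median. The flp genes spread from 0.60 to 2.49 around 1.76, body wall muscle has a median of 1.80, pan-neuronal genes one of 0.32 and germline genes one of -6.35; on body wall muscle scaling the flp median is 0.06 and the pan-neuronal one -0.98.

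Of the 31 members, 13 lie on chromosome X in the WBcel235 annotation, 5 each on III and IV, 3 each on II and V and 2 on I. The 13 X-linked members had a median log2 difference of 1.85, from 1.13 to 2.49, and the 17 tested autosomal members one of 1.63, from 0.60 to 1.99. Ranges overlapped widely. Over all genes the medians were 0.80 for 1807 X-linked and -0.49 for 10226 autosomal genes, with 62.1% and 38.5% called higher. On the pan-neuronal scale the flp medians were 1.42 and 1.18.

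The 3 RNAi groups were each compared with the same glp-1 luc libraries, so their differences share controls and are given side by side. Across the 12 glp-1 libraries the highest library of a tested member was 1.16 to 1.84 times the lowest, with a median of 1.32. The summed flp RPKM was 1940, 1742 and 1878 under hlh-30 RNAi, 1985, 1842 and 1875 under atg-2 RNAi and 1944, 1847 and 1871 under atg-18 RNAi. Each set overlapped the luc libraries. In the authors' deposited tables no flp gene had a false discovery rate under 0.05, and the lowest was 0.893 for flp-16 under atg-18 RNAi. Few genes of any kind did, namely 93 of 42048 under hlh-30 RNAi, 2 under atg-2 RNAi and 44 under atg-18 RNAi.

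Under hlh-30 RNAi 0 of 30 flp genes were called by limma, against 11 of 12494 genes (0.088%). None had an unadjusted p under 0.05 either, against 9.5% of all genes tested. The median log2 difference was 0.02, with 19 of 30 genes above 0 (46.8% of all genes), but it was -0.07 on the muscle scale. Every 95% interval covered 0, they ran from -0.46 to 0.65, and 29 of 30 estimates had an interval within 1.5-fold. The smallest p belonged to flp-15, a ligand gene of NPR-3, with 54.8, 60.2 and 56.2 RPKM on luc and 62.0, 61.1 and 67.8 RPKM under hlh-30 RNAi. The groups did not overlap, yet the difference of 0.15 ± 0.07 did not pass (limma adjusted p = 0.556). flp-17 was next, with 24.2, 20.9 and 20.4 RPKM on luc and 26.9, 25.5 and 22.7 RPKM under hlh-30 RNAi (0.19 ± 0.10, limma adjusted p = 0.600). flp-19 followed, with 50.6, 44.4 and 48.1 RPKM and then 54.3, 51.0 and 51.9 RPKM (0.13 ± 0.07, limma adjusted p = 0.624). The flp-17 libraries of the 2 groups overlapped and those of flp-19 did not. Groups did not overlap for 3 genes, each higher, against 6.28% of all genes.

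Under atg-2 RNAi limma called 0 of 30 flp genes and 0 of 12548 genes (0%). Here 7 flp genes had an unadjusted p under 0.05, against 7.66% of all genes tested. Each of the 7 was higher, and on that side alone 312 of the 12548 genes had such a p. The count was 2 without the mean-variance trend (909 of 12548 genes) or on the pan-neuronal scale (937 of 12493), and 0 on the muscle scale (457 of 12287). With any 1 library left out it was 2 to 6, against 598 to 1070 of all genes. Of the 6 without atg-2 RNAi library 1, 4 were higher. With the replicate number as a block the count was 9, of which 8 were higher, against 1727 of 12548 genes. The median difference was 0.05, with 24 of 30 genes above 0 (47.4% of all genes), and on the muscle scale it was -0.01. flp-16 was at 49.1, 44.3 and 44.7 RPKM on luc and at 55.9, 53.0 and 55.4 RPKM under atg-2 RNAi. The libraries did not overlap, and the difference was 0.25 ± 0.06 (limma adjusted p = 0.434, and 0.154 with the replicate number as a block). flp-14 went from 69.3, 69.6 and 65.7 RPKM to 79.0, 75.2 and 77.8 RPKM (0.18 ± 0.05, limma adjusted p = 0.493), and flp-12 from 65.6, 66.0 and 63.8 RPKM to 72.8, 78.8 and 68.9 RPKM (0.17 ± 0.06, limma adjusted p = 0.580). In both genes the luc libraries lay below the 3 atg-2 RNAi libraries. The other 4 were flp-3, flp-9, flp-11 and flp-33, named after their values were seen. Groups did not overlap for 7 genes on the higher side, against 5.16% of all genes, and for 1 on the lower side, flp-13, against 8.28%. Intervals ran from -0.46 to 0.63, and 29 of 30 lay within 1.5-fold.

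Under atg-18 RNAi limma called 0 of 30 flp genes and 0 of 12441 genes (0%), with 2 flp genes at an unadjusted p under 0.05, against 6.83% of all genes tested. The median difference was 0.08, with 23 of 30 genes above 0 (48.2% of all genes), and it was -0.02 on the muscle scale. flp-16 stood at 51.7, 58.9 and 55.7 RPKM, above the 3 luc libraries listed for it, with a difference of 0.26 ± 0.08 (limma adjusted p = 0.673). flp-14 was at 77.0, 75.1 and 74.2 RPKM (0.14 ± 0.06, limma adjusted p = 0.718), and flp-12 at 68.9, 70.8 and 76.7 RPKM (0.14 ± 0.06, limma adjusted p = 0.728). Both lay above the luc libraries too. Groups did not overlap for 5 genes, each higher, against 5.58% of all genes. Intervals ran from -0.27 to 0.58, and all 30 lay within 1.5-fold.

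**Figure D5:**
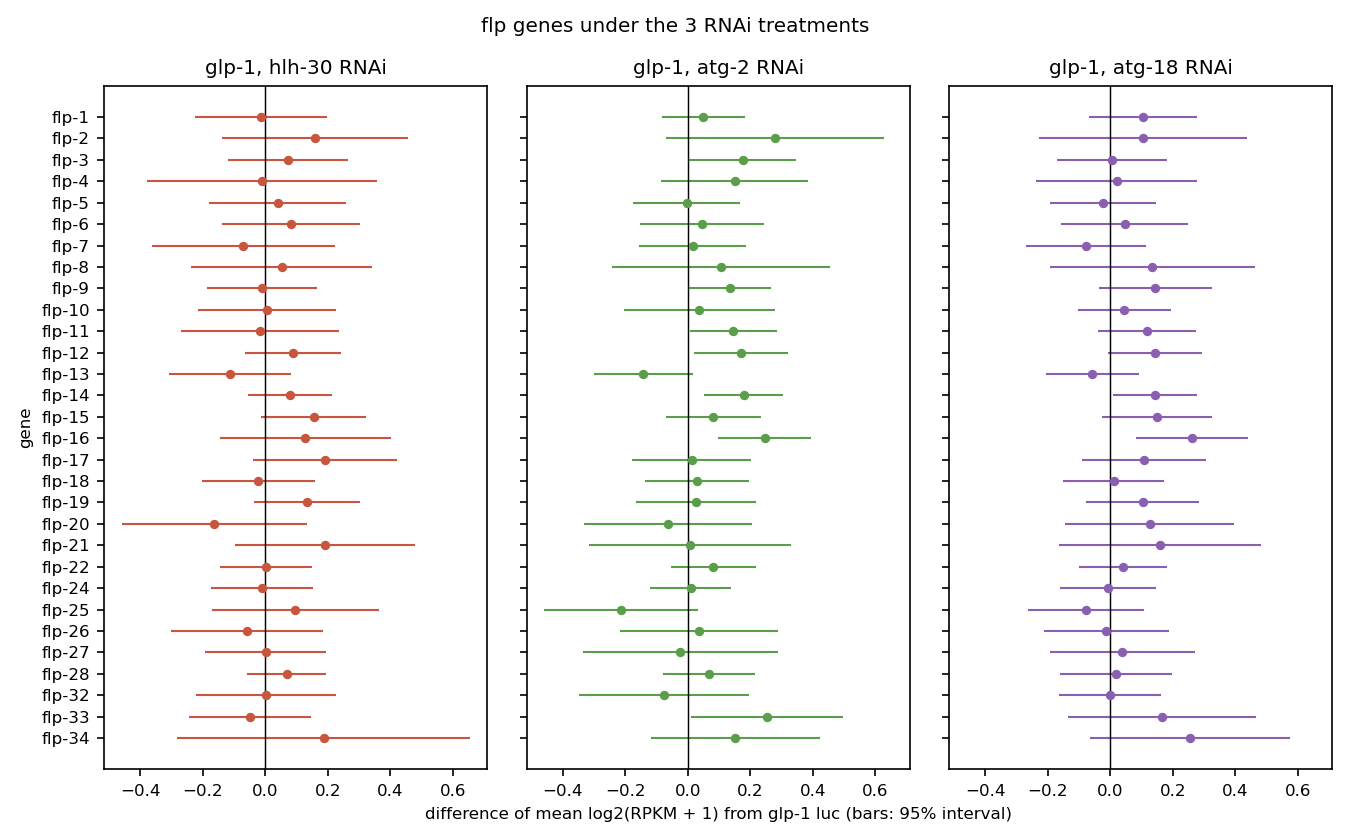
Difference of mean log2(RPKM + 1) from glp-1 luc worms (x axis, 3 libraries in each group, bars are 95% limma intervals) for 30 flp genes (y axis) under hlh-30, atg-2 and atg-18 RNAi. The 3 panels share the luc libraries; 30, 23 and 28 intervals cover 0, medians are 0.02, 0.05 and 0.08, and on body wall muscle scaling they are -0.07, -0.01 and -0.02.

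The RNAi groups were also set against each other in 1 fit of the 12 glp-1 libraries, which uses no shared control. Between hlh-30 and atg-2 RNAi 0 of 30 flp genes were called, against 126 of 12460 genes (1.01%), and 3 had an unadjusted p under 0.05, against 12.5% of all genes. The replicate numbers paired these libraries, and with them as a block 757 genes were called but still no flp gene. flp-25 was at 22.1, 16.9 and 20.6 RPKM under hlh-30 RNAi and at 18, 15.2 and 14.3 RPKM under atg-2 RNAi. These groups overlapped, and the difference was 0.31 ± 0.11 (limma adjusted p = 0.238, and 0.0557 with the block). flp-33, a low member, was at 17.7, 17.1 and 15.3 RPKM against 18.3, 23.7 and 20.7 RPKM (-0.30 ± 0.12, limma adjusted p = 0.332), and flp-17 was at the values given above against 21.8, 21.5 and 22.6 RPKM (0.18 ± 0.08, limma adjusted p = 0.386). Groups did not overlap for 1 higher gene, flp-17, and for 2 lower ones, flp-14 and flp-33, against 9.44% and 8.27% of all genes.

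Between hlh-30 and atg-18 RNAi 0 flp genes were called, against 127 genes (1.02%) and 506 with the block, and 0 had an unadjusted p under 0.05, against 9.99% of all genes. flp-20 had the smallest p, with 12.7, 12.2 and 16.5 RPKM under hlh-30 RNAi and 19.9, 15.7 and 15.7 RPKM under atg-18 RNAi (-0.29 ± 0.14, limma adjusted p = 0.517). flp-9 was at 154, 137 and 132 RPKM against 165, 142 and 164 RPKM (-0.15 ± 0.07, limma adjusted p = 0.532), and flp-33 was at 23.7, 18.7 and 16.7 RPKM under atg-18 RNAi (-0.21 ± 0.12, limma adjusted p = 0.664). The libraries overlapped for these 3 genes. Between atg-2 and atg-18 RNAi 0 flp genes were called, against 2 genes (0.0161%), and 1 had an unadjusted p under 0.05, against 3.14%. This was flp-3, at 46.1, 44.4 and 46.6 RPKM under atg-2 RNAi and 41.0, 39.6 and 41.0 RPKM under atg-18 RNAi (0.17 ± 0.07, limma adjusted p = 0.999), groups that did not overlap. Groups stood apart for 2 flp genes on the higher and 1 on the lower side, against 3.02% and 5.02% of all genes. The next smallest p were those of flp-20 at -0.19 ± 0.14 and flp-2 at 0.17 ± 0.13, both with overlapping libraries. Over the 3 contrasts the intervals ran from -0.59 to 0.55.

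Libraries with the same number resembled each other in flp level. The summed flp RPKM was highest in library 1 and lowest in library 2 of each of the 5 groups. The summed muscle RPKM ran the other way, lowest in library 1 and highest in library 2 of each group. Germline RNA, as the median of 20 genes in percent of TU3401, was 1.06, 1.73 and 2.64% in library 1 of the luc, hlh-30 and atg-2 groups of glp-1 worms, and 0.13 to 0.18% in the other 9 glp-1 libraries. Its part in the flp values was not tested. Without the libraries numbered 1, glp-1 against TU3401 gave 30 calls among flp genes, each higher, and a flp median of 1.78. Of the 13470 genes in that fit, 5512 were called higher and 6453 lower, with a median of -0.19. The RNAi comparisons then gave 0 calls among flp genes. Against luc, 1 of 12364 genes was called under hlh-30 RNAi and 0 under atg-2 or atg-18 RNAi.

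flp-23 stood apart from the family by its level. It was listed at 0 in 2 TU3401 libraries, in the 3 glp-1 luc libraries and in libraries 1 and 2 of hlh-30 RNAi, and at 0.10 to 0.38 RPKM in the other 8 libraries, on 1 to 3 reads each. Its 3 atg-2 RNAi libraries, at 0.185, 0.196 and 0.191 RPKM on 2 reads each, and its 3 atg-18 RNAi libraries all lay above the luc libraries, which had no read. Without the filter the limma log2 difference was 0.25 under atg-2 RNAi (unadjusted p = 0.00176, adjusted p = 0.675) and 0.23 under atg-18 RNAi (unadjusted p = 0.00965, adjusted p = 0.837). The authors' deposited tables give unadjusted p of 0.0338 and 0.0515 for flp-23 in these comparisons, with a false discovery rate of 1 in both. Such counts are too few to tell whether flp-23 differed between groups.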

How the data were processed

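Total RNA of whole worms was sequenced in 15 libraries. The authors deposited 4 tables of 42048 genes, each with 2 groups and the same 3 glp-1 luc columns, of which 0 values differed between copies. The deposited expression values are RPKM. Per the file headers, the tables also hold the authors' log2 fold change, a ranking score that was not used, and the authors' p-value together with a false discovery rate. TopHat2 2.1.1 and bcl2fastq were used, per the submitters' processing notes. As genome build these notes name GRCh38, which is human, while the gene names are of the worm. Not given in the sources used here are the counting tool, annotation, strand use and the authors' test. Whole reads were recovered from the RPKM steps for 31 of 31 flp genes and 99.9% of 13383 genes with a mean of at least 1 RPKM (tolerance 1e-04 reads). Recovered lengths equalled the WBcel235 coding length for 28 of 31 flp genes and for 85.9% of 11241 genes, so RPKM of those genes are per coding length. The flp exceptions were flp-12 (371 bases recovered against 258 coding), flp-23 and flp-34. No flp coding sequence overlaps another gene. Where a value rests on few reads, its precision is limited by counting.

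Tests were run on log2(RPKM + 1) in limma 3.58.1 (R 4.3.3), with the variance trend on and no covariates. Genes needed a mean of at least 1 RPKM in the fit, and Benjamini-Hochberg adjustment covered all genes tested. A comparison with luc was fitted on the 6 libraries concerned, and the direct RNAi contrasts on the 12 glp-1 libraries. The procedure was tested on simulated data. Intervals are 95% limma intervals. With 3 libraries against 3, an exact permutation of a single gene cannot go below 0.1, so none is given. Tables came from pandas 2.3.3 and numpy 2.4.6 under Python 3.11.15, figures from matplotlib 3.10.9.

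The members and gene lists were chosen with earlier results of these data known. Named in full were the 8 largest and 4 smallest flp differences between glp-1 and TU3401, the 3 of smallest p in each RNAi comparison and the 3 highest members, and in the other lists up to 3 called genes each way. Alternatives were a pseudocount of 0.1, no filter or one at 5 RPKM, no trend, scaling on pan-neuronal or body wall muscle genes, the replicate number as a block, and leaving out libraries. Same-numbered libraries were checked for pairing by correlating their deviations from group means. All 3 pairs were above 0.1 for atg-2 RNAi with luc (0.402, 0.264 and 0.200) and for the 3 direct contrasts (0.157 to 0.495), so the numbers were taken to pair the libraries there. For the other comparisons they were not.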

Additional observations from a re-analysis of the deposited data

How the results depend on the processing

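The median log2 difference of the flp genes between glp-1 and TU3401 worms was 1.30 on the pan-neuronal scale and 0.060 on the muscle scale, where 5 flp genes were called in place of 30. On the muscle scale the medians were -0.069 under hlh-30 RNAi and -0.024 under atg-18 RNAi. Also on that scale, flp-5 (-0.16), flp-6 (-1.14), flp-8 (-0.50), flp-10 (-0.12), flp-13 (-0.19), flp-15 (-0.066), flp-16 (-0.13), flp-19 (-0.21), flp-21 (-0.47), flp-27 (-0.040), flp-32 (-0.17) and flp-33 (-0.080) lay below 0 in glp-1 worms, of which only flp-6 passed the test. The cause was not tested. With each library left out in turn, the glp-1 median was 1.67 to 1.80 and the count against the family median 5 to 11. That count was 7 with the replicate number as a block, without the trend or without the libraries numbered 1, and 9 with a pseudocount of 0.1 or no filter. The block changed no other count of flp calls, which stayed at 30 between glp-1 and TU3401 worms and at 0 in the other comparisons. For glp-1 against TU3401 same-numbered libraries were hardly correlated over all genes tested (r = 0.071, 0.072 and -0.024). Their summed flp RPKM nevertheless ran in the same order in both groups. With 3 libraries a group, the RNAi intervals had a median half-width of 0.18 to 0.22, without adjustment for the number of genes tested. An interval clear of 0 was not enough for a call after adjustment. Under atg-2 RNAi 23 of 30 intervals covered 0, yet none of the other flp genes was called. RNAi differences of this size, or somewhat larger, could therefore go uncalled.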

Other observations

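The 2 other families of neuropeptide genes stood higher in glp-1 worms too, in RPKM as deposited and on the pan-neuronal scale, but not on the muscle scale, where their medians lay below 0 but above the median of all genes, -1.58. Of all genes tested, 41.4% were called higher and 48.3% lower as deposited (27.7% and 32.8% with no filter), 32.5% and 51.1% on the pan-neuronal scale, and 7.45% and 67.1% on the muscle scale. Of 44 genes named nlp, neuropeptide-like proteins without the FMRFamide ending, limma with Benjamini-Hochberg adjustment and no filter on low values called 34 higher and 0 lower (median log2 difference 1.49), and with the filter 34 of 40 (1.54), of which 1 passed only through glp-1 luc worms. On the pan-neuronal scale 31 of 41 were higher and 0 lower (1.10), and on the muscle scale 5 of 41 were higher and 8 lower (-0.079). Of 40 insulin-like peptide genes 22 were called higher and 2 lower with no filter (0.81). With the filter 24 were left, 3 of them only through glp-1 luc and 2 only through TU3401 worms. Of the 19 with at least 1 RPKM in both groups, 17 were called higher and 0 lower as deposited. On the pan-neuronal scale 17 of 25 insulin-like genes were higher and 2 lower (1.01). On the muscle scale 5 of 28 were higher and 7 lower (-0.067). How many nlp or insulin-like genes passed the filter through 1 group only on these scales was not counted. Neither family was set against the flp genes in a test.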
